A study of Mus musculus with 8 samples.

Results

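The cathepsins are the main proteases of the lysosome. The 10 genes described here, *Ctsa*, *Ctsb*, *Ctsc*, *Ctsd*, *Ctsf*, *Ctsh*, *Ctsk*, *Ctsl*, *Ctss* and *Ctsz*, were found by their symbols in the GENCODE M21 annotation among the 55573 genes of the deposited count table, and each matched a single Ensembl identifier. All 10 passed the filter on low counts. Microglia, the resident macrophages of the brain, were sorted at postnatal day 60 from 4 mutants of genotype *Smad2/3* fl/fl;*Cx3cr1*Cre and from 4 controls, with 1 sequencing library for each animal. *Smad2* and *Smad3* encode the transcription factors of canonical TGFβ signaling, and Cre driven from the *Cx3cr1* locus recombines floxed alleles in microglia and in related macrophages. The labels call the controls wild-type, whereas the Methods describe controls that generally carried Cre with a floxed allele and state that no mouse was free of both. The question addressed is how cathepsin transcripts differ between microglia of these mutants and of controls.

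Most cathepsins are cysteine proteases of the papain family. *Ctsd* encodes an aspartic protease, and *Ctsa* a serine carboxypeptidase that also shields the lysosomal sialidase and β-galactosidase from degradation. Cathepsins are made as inactive precursors, sorted to lysosomes largely through mannose 6-phosphate tags, matured by proteolysis in acid, and held in check by cystatins. In microglia and other macrophages they digest phagocytosed material, and some of them process antigens for presentation.

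The libraries held between 35639502 and 41946479 counts. *Smad3* was 48.7 ± 7.13 CPM in controls and 19.3 ± 11 CPM in mutants (SD, n = 4 each), where CPM are counts scaled to a common library size after TMM normalization. It was called lower (log2 fold change -1.33, adjusted p = 0.0429 in edgeR's quasi-likelihood test), but 7 of the 8 fits that left out a mouse lost this call, at edgeR adjusted p-values of 0.0565 to 0.110. The exception was the fit without mutant replicate 3 (adjusted p = 0.0043 in edgeR's test), which had the highest *Smad3* of the mutants, 35.1 CPM, and in that fit the cathepsin calls given below were the same in number, 1 higher and 5 lower. *Smad2* was 74.6 ± 13.8 CPM in controls and 58.8 ± 15 CPM in mutants (SD, n = 4 each). The groups overlapped and *Smad2* was not called (log2 fold change -0.34, adjusted p = 0.34 in edgeR's test), and for both genes the counts include exons outside the floxed ones. *Xist* was 99.5 to 183 CPM in the controls against 0.0276 to 0.562 CPM in the mutants, so this marker of sex split the mice just as genotype did, and the effects of sex and genotype cannot be told apart. The Y-linked *Ddx3y* was at most 0.224 CPM in controls and 59.8, 9.74, 41.7 and 48.0 CPM in mutant replicates 1 to 4. *Uty*, *Kdm5d* and *Eif2s3y* were also lowest in replicate 2 among the mutants, and the reason was not tested. The 7 microglial markers examined were all called lower in mutants, with a summed level of 29279 to 44385 CPM in controls and 5253 to 7592 CPM in mutants, and none was at 0. They include *Cx3cr1* (5456 to 8628 CPM in controls, 1278 to 1349 CPM in mutants), the locus from which Cre is driven in the mutants. The part of the Cre allele in the *Cx3cr1* difference was not tested. Of 7 markers of border-associated macrophages, 5 were called higher, with sums of 52.8 to 99.1 CPM in controls and 1632 to 2537 CPM in mutants. Of the other lists, 1 of 6 neutrophil markers (*Camp*) and 1 of 4 astrocyte markers (*Slc1a3*) were called lower, 2 of 4 lymphocyte markers (*Cd3e* and *Nkg7*) were called higher, and no marker of monocytes, neurons, oligodendrocytes or endothelial cells was called by edgeR. Of all 20153 tested genes, edgeR called 4.36% higher and 7.97% lower. Summed levels did not overlap for astrocytes (1252 to 1799 CPM in controls, 84.5 to 353 CPM in mutants), lymphocytes (17.6 to 43.4 and 51.2 to 96.6 CPM) and endothelial cells (8.62 to 14.1 and 1.08 to 8.36 CPM). In controls most of the astrocyte sum was *Slc1a3* (1084 to 1758 CPM, against 25.8 to 170 CPM in mutants). *Aqp4* (log2 fold change 0.73), *Gfap* (0.65) and *Gja1* (-0.33) were not called by edgeR. Of the 4 endothelial markers 2 were tested, *Pecam1* (-1.97) and *Flt1* (1.46), which went opposite ways. The shifts in marker levels moved with every cathepsin difference below and their part in them was not tested. In sorted bulk RNA fewer cells of a type and less RNA per cell cannot be told apart.

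Cathepsin transcripts did not change as a block. *Ctsd*, *Ctsl*, *Ctss*, *Ctsf* and *Ctsz* fell in mutants, *Ctsc* rose, and *Ctsa*, *Ctsb*, *Ctsh* and *Ctsk* were not called by edgeR's quasi-likelihood test with Benjamini-Hochberg adjustment. That is 1 gene higher and 5 lower of 10, where 12.3% of all 20153 tested genes were called, 4.36% higher and 7.97% lower. Groups did not overlap in CPM for 2 members higher and 5 lower, against 9.04% and 13% of all tested genes. The median log2 fold change of mutants over controls was -0.93 over the 10 members and 0.01 over all tested genes. Summed over the 10 genes, the level was 24837 ± 4502 CPM in controls and 14812 ± 1297 CPM in mutants (SD, n = 4 each), without overlap. This sum corresponded to 2.37% ± 0.342 of all counts in controls and 1.54% ± 0.0651 in mutants (SD, n = 4 each).

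**Figure D1:**
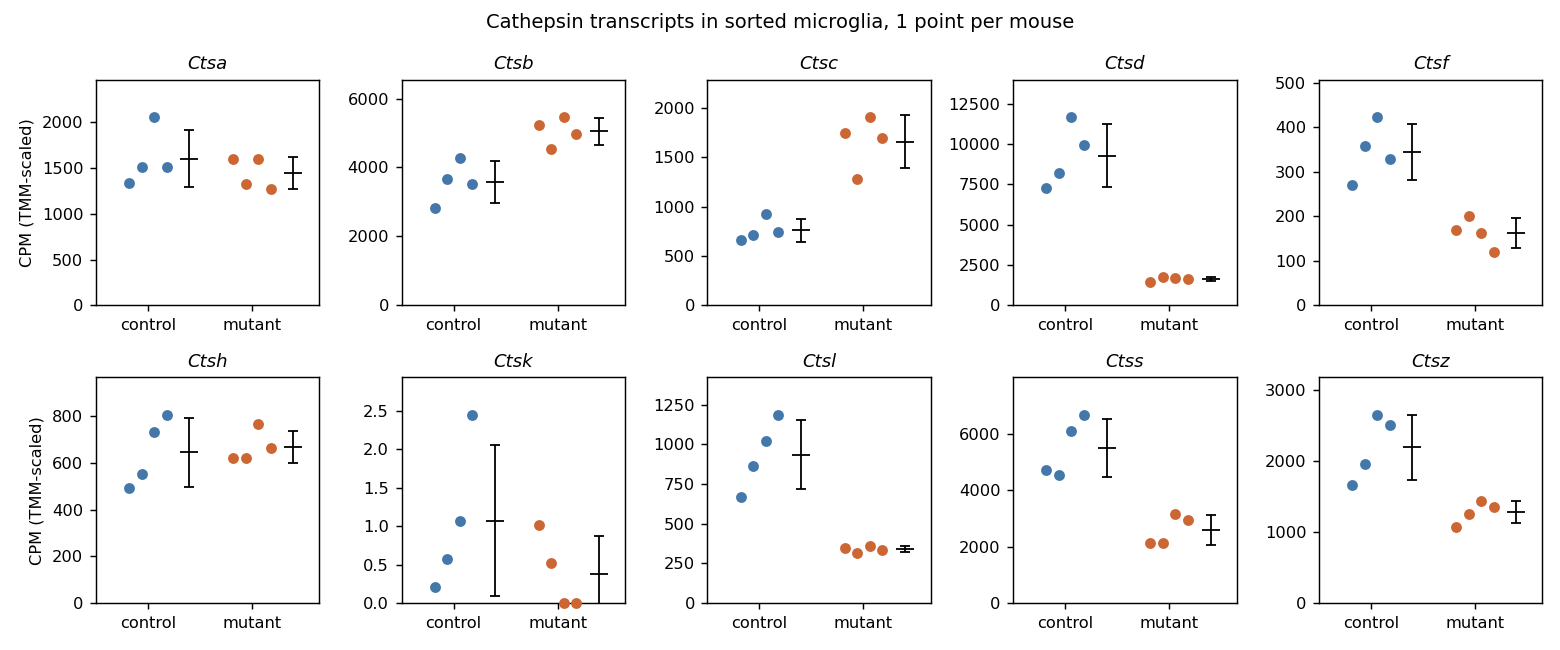
CPM of each cathepsin gene on its own linear axis from 0, with 1 point per mouse (blue, control; orange, mutant) and the mean ± SD of 4 mice as a black bar. *Ctsd* lies between 7278 and 11652 CPM in controls and between 1470 and 1738 CPM in mutants, no mutant of *Ctsc* or *Ctsb* lies as low as a control, and *Ctsa* and *Ctsh* overlap (the lower end of the *Ctsk* mutant bar, below 0, is not drawn).

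*Ctsd* (ENSMUSG00000007891, chr7:142375911-142388038 of GRCm38, minus strand), the aspartic endopeptidase whose loss causes a lysosomal storage disease of neurons, showed the widest difference. Its level was 7278, 8209.9, 11652 and 9953 CPM in control replicates 1 to 4 and 1469.6, 1738, 1661 and 1608 CPM in mutant replicates 1 to 4. The highest mutant was far below the lowest control, and the mutants lay closer together (CV 6.99%) than the controls (CV 20.9%). The fall was 5.73-fold (95% interval 4.24 to 7.73), a log2 fold change of -2.52 (SE 0.19, adjusted p = 9.4e-05 in edgeR's quasi-likelihood test). Fits without 1 of the mice gave log2 fold changes between -2.62 and -2.39, and all 8 called the gene lower. Of its exon bases, 34.4% also belong to *Gm49369*, an annotated gene on the same strand that had 0 counts in every library. How reads in shared bases were counted is not given, so the level of *Ctsd* per exon length is uncertain.

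*Ctsl* (ENSMUSG00000021477, chr13:64359337-64370890, minus strand) encodes cathepsin L, an endopeptidase that also matures other lysosomal enzymes. Its level was 670.2, 865, 1024 and 1185 CPM in the controls and 344, 315, 360.3 and 335 CPM in the mutants. Every mutant was below every control, although control replicate 1 lay nearer to the mutants than the other controls did. The fall was 2.76-fold (95% interval 2.05 to 3.73), or -1.47 on the log2 scale (SE 0.19, adjusted p = 0.0014 in edgeR's quasi-likelihood test). Exons of *Gm47123*, annotated as antisense, cover 26.9% of its exon bases and had 0 counts in all libraries. The processed pseudogene *Gm49230* on the same strand shares 6.09% and also had 0 counts, so the level of *Ctsl* per exon length is likewise uncertain.

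*Ctss* (ENSMUSG00000038642, chr3:95526786-95556403, plus strand) encodes cathepsin S, which stays active at neutral pH and cuts the invariant chain of MHC class II in antigen-presenting cells. It measured 4720, 4531, 6088 and 6666 CPM in the controls and 2118, 2136, 3155 and 2953 CPM in the mutants. The groups did not overlap, and within each group replicates 3 and 4 were higher than replicates 1 and 2. The fall was 2.12-fold (95% interval 1.53 to 2.95), a log2 fold change of -1.09 (SE 0.21, adjusted p = 0.0105 in edgeR's quasi-likelihood test).

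*Ctsf* (ENSMUSG00000083282, chr19:4855130-4860918, plus strand) encodes cathepsin F, a cysteine protease with a long cystatin-like propeptide. Its level was 270.5, 359, 423 and 328 CPM in the controls and 169, 201, 163 and 119 CPM in the mutants. No mutant reached the lowest control. The log2 fold change was -1.08 (SE 0.20, adjusted p = 0.0091 in edgeR's quasi-likelihood test), a 2.12-fold fall (95% interval 1.54 to 2.91) close in size to that of *Ctss*.

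*Ctsz* (ENSMUSG00000016256, chr2:174427493-174439039, minus strand) encodes cathepsin Z, a carboxypeptidase that can bind integrins through its propeptide. It measured 1667, 1956, 2651 and 2507 CPM in the controls and 1068, 1261, 1437 and 1348 CPM in the mutants. The groups did not overlap, but the gap between control replicate 1 and the highest mutant was small beside the spread of the controls. The fall was 1.72-fold (95% interval 1.27 to 2.32), a log2 fold change of -0.78 (SE 0.19, adjusted p = 0.0299 in edgeR's quasi-likelihood test). This call was lost, at edgeR adjusted p-values of 0.0592 to 0.0816, without control replicate 2, 3 or 4 or mutant replicate 1, 2 or 4, with log2 fold changes of -0.83 to -0.66.

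*Ctsc* (ENSMUSG00000030560, chr7:88278085-88310888, plus strand) was the only member called higher by edgeR. It encodes cathepsin C, also named dipeptidyl peptidase I, which removes dipeptides from the amino terminus of proteins and activates the serine proteases of neutrophil and lymphocyte granules. Its level was 666, 709.8, 928 and 741 CPM in the controls and 1753, 1279, 1907 and 1695 CPM in the mutants. All mutants exceeded all controls, and mutant replicate 2 was the lowest of them. The rise was 2.18-fold (95% interval 1.64 to 2.89), or 1.12 on the log2 scale (SE 0.18, adjusted p = 0.0042 in edgeR's quasi-likelihood test), and it was called in all 8 fits that left out a mouse.

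*Ctsb* (ENSMUSG00000021939, chr14:63122462-63145923, plus strand) encodes cathepsin B, an endopeptidase that also trims dipeptides from carboxyl ends. It measured 2829.5, 3677, 4287 and 3511 CPM in the controls and 5234, 4531, 5457 and 4972 CPM in the mutants. The groups did not overlap, yet the log2 fold change of 0.50 (SE 0.17, 95% interval 0.12 to 0.88) was not called by edgeR's quasi-likelihood test (adjusted p = 0.0874). DESeq2 called it higher at the same size (0.50, adjusted p = 0.0188), where DESeq2 called 22.6% of the genes it tested, 10.1% higher. Scaling by library totals, which moved the median log2 fold change of all tested genes from 0.01 to 0.13, gave *Ctsb* 0.62 (adjusted p = 0.0229 in edgeR's test). On the opposite strand, *Fdft1* shares 12.8% of its exon bases, and this neighbor had 837 to 1352 counts in controls and 1149 to 1630 in mutants against at least 109452 for *Ctsb*.

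The remaining members did not differ beyond the spread between mice. *Ctsh* (ENSMUSG00000032359, chr9:90054152-90076089, plus strand), an aminopeptidase, was 491 to 805 CPM in the controls, which span the 619.97 to 768 CPM of the mutants, with a log2 fold change of 0.05 (95% interval -0.38 to 0.48, adjusted p = 0.897 in edgeR's test). Leaving out 1 mouse moved that value between -0.059 and 0.22, across 0. *Ctsa* (ENSMUSG00000017760, chr2:164832873-164841032, plus strand) was 1340.2 to 2056 CPM in the controls against 1269 to 1599 CPM in the mutants, with a log2 fold change of -0.15 (95% interval -0.55 to 0.25, adjusted p = 0.642 in edgeR's test). The intervals reach 0.48 for *Ctsh* and -0.55 for *Ctsa*, so neither gene was shown to be equal between groups. The *Ctsa* value is uncertain in another respect, because 10.5% of its exon bases overlap *Pltp* on the opposite strand, the libraries are unstranded, and *Pltp* rose from 2298 to 7168 counts in controls to 18731 to 24846 in mutants (log2 fold change 1.94, adjusted p = 0.0034 in edgeR's test).

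*Ctsk* (ENSMUSG00000028111, chr3:95499256-95509362, plus strand), the collagen-degrading protease of osteoclasts, was close to absent. It had 8, 22, 38 and 91 counts in the controls and 39, 24, 0 and 0 counts in the mutants, and a count of 0 allows up to 3. The groups overlapped, and the log2 fold change of -1.47 had a 95% interval from -4.67 to 1.72 (adjusted p = 0.547 in edgeR's test), so no difference was detectable at this depth. *Ctsk* and *Ctss* are neighbors on chromosome 3, with 17423 bases and no annotated gene between them, while *Ctss* had at least 81560 counts in every library.

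**Figure D2:**
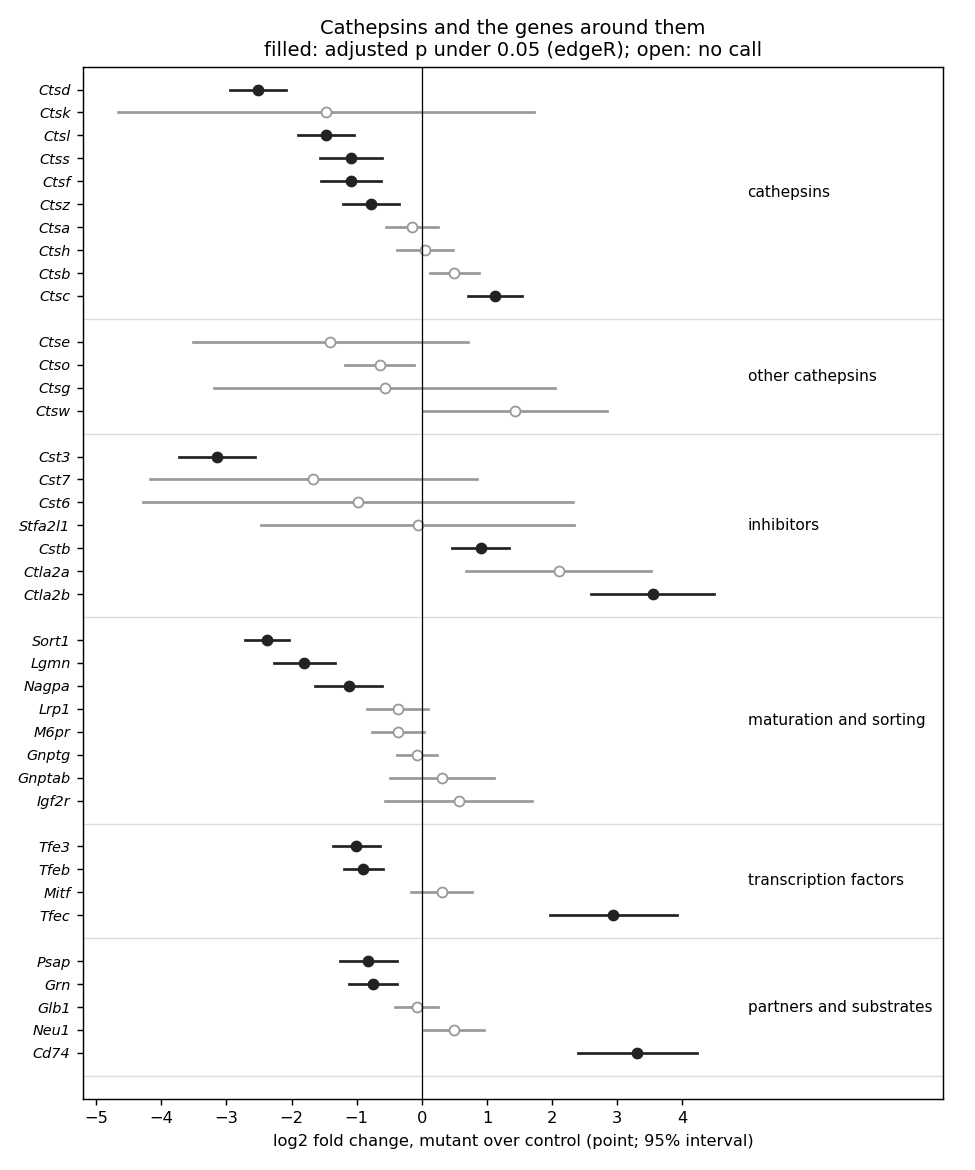
Log2 fold change of mutants over controls (x axis) with its 95% interval for the 10 cathepsins and for 28 tested genes of 5 lists around them, ordered by size within each list. Filled points passed an adjusted p of 0.05 in edgeR's quasi-likelihood test, and the cathepsins run from -2.52 (*Ctsd*) to 1.12 (*Ctsc*).

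Levels were compared between genes as CPM per kilobase of annotated exon. On this scale controls held mainly *Ctss* (4051 ± 767) and *Ctsd* (3944 ± 823), which overlapped, followed by *Ctsz* (1523 ± 321), *Ctsb* (591 ± 99.0) and *Ctsa* (340.1 ± 66.1; SD, n = 4 each). Below these, *Ctsl* (144 ± 33.9), *Ctsh* (143 ± 33.0) and *Ctsc* (131 ± 19.9) overlapped one with the next, and *Ctsf* (68.4 ± 12.6) and *Ctsk* (0.709 ± 0.649) came last. In mutants *Ctss* remained first (1908 ± 399), *Ctsz* (887 ± 109) and *Ctsb* (834 ± 65.8) came next and overlapped, and *Ctsd* followed (689 ± 48.1). *Ctsa* (307 ± 37.1) and *Ctsc* (286 ± 46.2) overlapped behind it, ahead of *Ctsh* (149 ± 15.5), *Ctsl* (52.2 ± 2.90), *Ctsf* (32.3 ± 6.68) and *Ctsk* (0.253 ± 0.321; SD, n = 4 each). On this scale, neighbors that are not named as overlapping had ranges that did not touch. Parts of the order depend on the length used. With the longest or the principal transcript, *Ctsd* came before *Ctss* in controls, *Ctsc* before *Ctsl* and *Ctsh* in controls and before *Ctsa* in mutants, *Ctsb* before *Ctsz* in mutants, and *Ctsf* before *Ctsl* in both groups. With the coding length, *Ctsd* came before *Ctss* and *Ctsb* before *Ctsz* in controls, and in mutants *Ctsb* came first of all and *Ctsc* before *Ctsa*.

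As a share of the summed per-length level, *Ctsd* made up 36.0% ± 1.72 in controls and 13.5% ± 1.66 in mutants (SD, n = 4 each). *Ctsb* made up 5.45% ± 0.684 and 16.3% ± 1.55, and *Ctsc* 1.21% ± 0.120 and 5.55% ± 0.725, in the same order of groups (SD, n = 4 each). The share of *Ctss*, whose own level fell, was 37.1% ± 2.79 in controls and 36.8% ± 3.68 in mutants (SD, n = 4 each). The shares are relative, so a smaller *Ctsd* raises those of the other genes, as for *Ctsh* (1.30% and 2.89%), whose level was not called. *Ctsd* exceeded *Ctsb* 6.66 ± 0.671 times per length in controls, whereas in mutants the ratio was 0.831 ± 0.113 and below 1 in all 4 mice (SD, n = 4 each). The ratio was 2.14 in controls and 0.267 in mutants with the coding length, 2.59 and 0.323 without length, and 5.77 and 0.720 with the longest transcript, again above 1 in every control and below 1 in every mutant. The size of the shares depends on the length used: with the coding length alone, *Ctsb* took 15.9% in controls and 36.8% in mutants, and *Ctss* 24.2% and 18.6%.

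**Figure D3:**
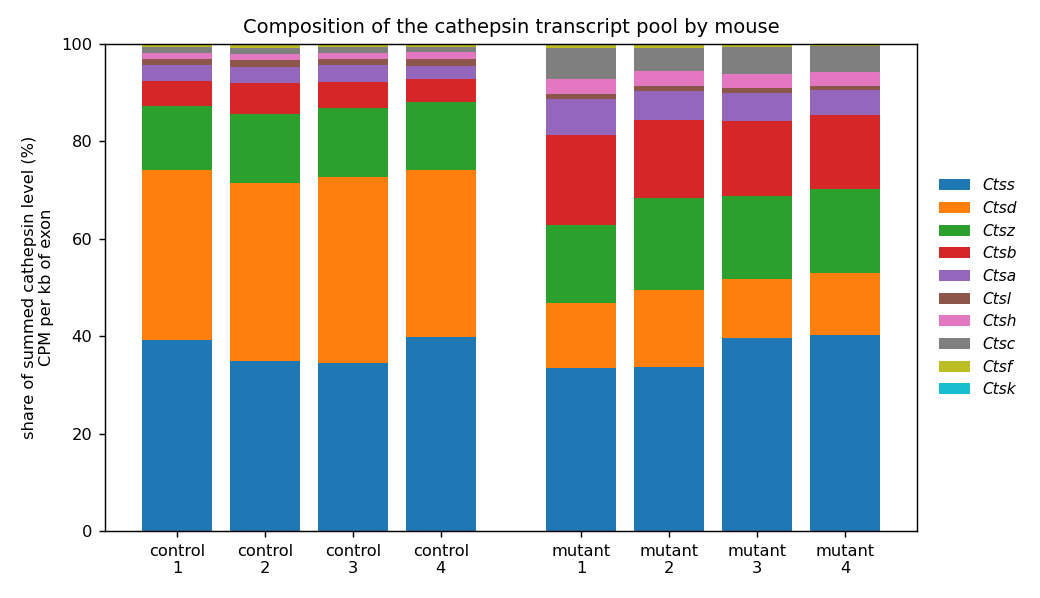
Share of each cathepsin gene in the summed cathepsin level (CPM per kilobase of exon, in percent) as stacked bars, 1 bar per mouse. *Ctsd* takes 34.3% to 38.2% in controls and 12.1% to 15.8% in mutants, while *Ctsb* takes 4.70% to 6.35% and 15.2% to 18.6%.

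Promoters of lysosomal genes often carry the CLEAR element, a palindrome around the E-box CACGTG that is bound by TFEB and its relatives. RefSeq promoter windows (GRCm38.p6, 250 bases before to 50 after the start) were matched for 8 of the 10 members, *Ctsb* and *Ctsh* being without an entry. CACGTG was found in 4 of the 8 (*Ctsa*, *Ctsd*, *Ctsf* and *Ctsl*) and in 8.09% of 27025 genes with a window. Its longer form TCACGTGA was found in *Ctsa* and *Ctsd* and in 1.13% of genes. The stretches show where the E-box lies in each gene that holds it. Of these 4 genes 3 fell, and of the 4 members whose windows lack it (*Ctsc*, *Ctsk*, *Ctss* and *Ctsz*) 2 fell. The sequences read 5′ to 3′ on the strand of the gene, with the motif in capitals.
Ctsd chr7:142387908-142387937 (minus strand): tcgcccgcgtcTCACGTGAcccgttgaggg
Ctsd chr7:142388056-142388077 (minus strand): tccccCACGTGacctgtatcca
Ctsl chr13:64370740-64370767 (minus strand): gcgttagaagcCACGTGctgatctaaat
Ctsf chr19:4855075-4855102 (plus strand): accccgtggtcCACGTGcctcgcgtaaa
Ctsa chr2:164833749-164833778 (plus strand): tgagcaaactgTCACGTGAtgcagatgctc
Ctsa chr2:164833766-164833795 (plus strand): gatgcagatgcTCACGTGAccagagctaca

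Counted from the RefSeq start site of each window, the upper *Ctsd* motif begins at base -99 and the lower at -245, that of *Ctsf* at -79 and that of *Ctsl* at -236. For *Ctsd* and *Ctsl* the GENCODE gene starts further upstream than this RefSeq site. By the gene positions given above, the upper *Ctsd* motif and that of *Ctsl* lie inside the gene. The lower *Ctsd* motif and that of *Ctsf* lie before it. *Ctsa*, which was not called, has 2 RefSeq windows. The window at the annotated gene start, chr2:164832622-164832921, holds no E-box, and both copies lie in the other, chr2:164833523-164833822, inside the gene and on either side of a second start. A core bound by the macrophage factor PU.1, GAGGAAGT, was found in *Ctsc* and *Ctss*, which moved in opposite directions, and in 3.69% of genes. Both matches lie on the strand opposite to the gene, so the capitals below show the reverse complement.
Ctsc chr7:88277923-88277952 (plus strand): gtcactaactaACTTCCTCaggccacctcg
Ctss chr3:95526773-95526802 (plus strand): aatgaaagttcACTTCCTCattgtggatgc

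GTCTAGAC, the palindromic Smad-binding element, was not in the windows of the 8 members and was in 0.248% of genes. All motifs were searched on both strands, CACGTG lies within TCACGTGA, and a match describes letters and not a bound site.

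Among the genes that control cathepsins, the inhibitors moved in both directions. Of 10 listed, 7 were tested, 2 rose and 1 fell, where 4.36% of all tested genes were called higher and 7.97% lower. *Cst3* encodes cystatin C, the secreted inhibitor of cysteine cathepsins, and measured 33470 (control replicate 1), 28441, 46125 and 52276 CPM in the controls and 3420 (mutant replicate 1), 4940 (mutant replicate 2), 4619 and 5171 CPM in the mutants. The groups lay far apart, and the log2 fold change was -3.14 (SE 0.26, adjusted p = 1.2e-04 in edgeR's quasi-likelihood test). *Cstb*, the cytosolic cystatin B, rose from 77.7 ± 15.5 to 145 ± 29.7 CPM (SD, n = 4 each), or 0.90 on the log2 scale (adjusted p = 0.0181 in edgeR's test). That call was lost without control replicate 2 (adjusted p = 0.0597 in edgeR's test) or 3 (0.0530). *Ctla2b*, related to the propeptide of cysteine cathepsins, rose from 0.393 ± 0.118 to 4.63 ± 0.984 CPM (SD, n = 4 each; log2 fold change 3.55, adjusted p = 9.0e-04 in edgeR's test). Its close paralog *Ctla2a* had a log2 fold change of 2.10 and was not called (adjusted p = 0.0601 in edgeR's test). The groups did not overlap for *Ctla2a* (0.207 to 1.48 CPM in controls, 2.07 to 6.63 CPM in mutants), and DESeq2 called it higher (adjusted p = 0.0077). On the same strand, *Ctla2b* shares 60.1% of its exon bases with *Gm49391* and 22.6% with *Gm49392*, and *Ctla2a* shares 16.3% with *Gm49391*. How reads were divided between these genes is uncertain. Per length, *Cst3* was 4.71 ± 0.583 times the sum of the 8 cysteine cathepsins in controls and 0.870 ± 0.157 times in mutants (SD, n = 4 each), without overlap. With other lengths or none, the mean ratio ran from 2.85 to 6.92 in controls and from 0.389 to 1.12 in mutants, also without overlap.

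**Figure D4:**
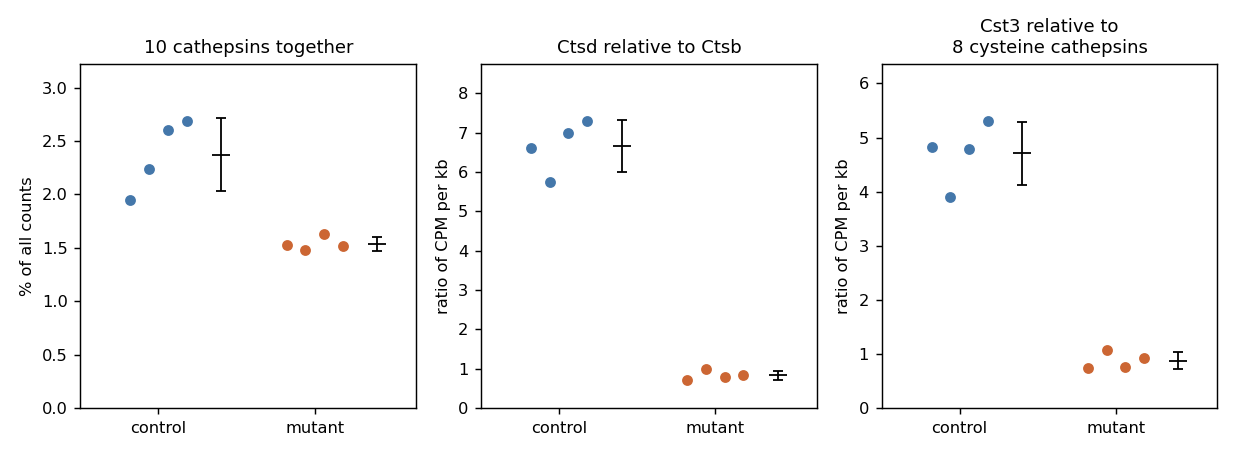
Summed and relative levels per mouse (points; blue, control; orange, mutant) with mean ± SD of 4 mice: the 10 cathepsins as a percent of all counts, *Ctsd* over *Ctsb*, and *Cst3* over the summed cysteine cathepsins, the last 2 as ratios of CPM per kilobase of exon. Every mutant lies below every control in each panel.

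Of 8 genes of maturation and sorting, 3 fell and none rose by edgeR's test, where 7.97% of all tested genes were called lower. *Lgmn*, or legumain, which cuts single-chain cathepsins into their mature form, fell from 3266 ± 754 to 933 ± 141 CPM (SD, n = 4 each; log2 fold change -1.81, adjusted p = 7.6e-04 in edgeR's test). *Sort1*, the sorting receptor sortilin, fell from 109 ± 15.2 to 21 ± 0.268 CPM (SD, n = 4 each; log2 fold change -2.38, adjusted p = 4.8e-05 in edgeR's test). *Nagpa*, which uncovers the mannose 6-phosphate tag, had a log2 fold change of -1.12 (adjusted p = 0.0130 in edgeR's test). The mannose 6-phosphate receptors *M6pr* (-0.37, adjusted p = 0.203) and *Igf2r* (0.57, adjusted p = 0.509) and the enzymes that add the tag, *Gnptab* (0.31, adjusted p = 0.616) and *Gnptg* (-0.07, adjusted p = 0.777), were not called by edgeR, nor was the endocytic receptor *Lrp1* (-0.37, adjusted p = 0.28). The *Gnptg* value is uncertain, because 49.5% of its exon bases overlap *Unkl* on the opposite strand and the libraries are unstranded.

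The 4 transcription factors of the TFEB family split. *Tfeb* fell from 72.3 ± 4.73 to 38.8 ± 3.78 CPM (SD, n = 4 each; log2 fold change -0.90, adjusted p = 0.0031 in edgeR's test). *Tfe3* fell from 174 ± 29.0 to 86.7 ± 9.22 CPM (SD, n = 4 each; log2 fold change -1.0, adjusted p = 0.0043 in edgeR's test). *Tfe3* lies on the X chromosome, and the groups differ in sex-linked expression as given above. *Tfec*, the member most confined to macrophages, rose from 1.43 ± 0.242 to 11 ± 6.12 CPM (SD, n = 4 each; log2 fold change 2.94, adjusted p = 0.0027 in edgeR's test). *Mitf* had a log2 fold change of 0.30 and was not called (adjusted p = 0.374 in edgeR's test).

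Partners and substrates also went both ways, with 1 of 5 higher and 2 lower, against 4.36% and 7.97% of all tested genes. *Cd74*, the invariant chain cut by cathepsin S, measured 757, 1248, 835 and 1066 CPM in the controls and 9756, 3713, 14843 and 10337 CPM in the mutants. All mutants were higher, mutant replicate 2 least so, while *Ctss* was lower in all of them, and the log2 fold change of *Cd74* was 3.31 (SE 0.40, adjusted p = 0.0010 in edgeR's quasi-likelihood test). *Psap*, the precursor of the saposins, fell from 2279 ± 439 to 1288 ± 205 CPM (SD, n = 4 each; log2 fold change -0.82, adjusted p = 0.0248 in edgeR's test), and this call was lost without control replicate 2 or 3 or mutant replicate 2 or 4 (adjusted p of 0.0565 to 0.0790 in edgeR's test). *Grn*, encoding progranulin, which cathepsins cut into granulins, had a log2 fold change of -0.75 (adjusted p = 0.0173 in edgeR's test), with the call lost without mutant replicate 4 (adjusted p = 0.0545). The enzymes held in a complex with the *Ctsa* product, *Neu1* (0.49, adjusted p = 0.153) and *Glb1* (-0.08, adjusted p = 0.768), were not called by edgeR.

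Among 13 further cathepsins of the mouse, 4 were tested and none was called by edgeR or by DESeq2. Of these, 2 had an unadjusted p under 0.05 in edgeR's test, *Ctso* with a log2 fold change of -0.65 (adjusted p = 0.109) and *Ctsw*, a cathepsin of cytotoxic lymphocytes, with 1.43 (adjusted p = 0.17). *Ctse* was 0.538 to 22.4 CPM in the controls against 1.35 to 9.75 CPM in the mutants. *Ctsg*, a serine protease of neutrophil granules, ranged from 0.181 to 8.51 CPM and from 0.130 to 6.69 CPM. The 9 others, most of them known from the rodent placenta, had at most 2 counts in any library. Over all 5 lists, 28 of 40 genes were tested, 4 rose, 8 fell and 16 were not called by edgeR. Among all 20153 tested genes, 4.36% were called higher and 7.97% lower.

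The tested genes most like *Ctsc* in log2 CPM over the 8 libraries, among the 10336 whose mean log2 CPM reached 3, were *P2rx4* (Pearson r = 0.986), *Bcl2a1a* (0.983) and *Rasgef1b* (0.982). Those most like *Ctsd* were *Tmem173* (0.999), *Ppfia4* (0.999) and *Csnk1e* (0.997). These correlations describe patterns only, since the 8 libraries share the difference between groups. *P2rx4*, an ATP-gated channel found in lysosomes, was 77.0 CPM in controls and 228 CPM in mutants on average. *Tmem173*, which encodes the DNA-sensing adaptor STING, was 674 CPM in controls and 87.3 CPM in mutants.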

How the data were processed

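RNA of sorted microglia was analysed, 1 library per mouse. According to the Methods, cells were isolated on Percoll, and TdTomato+ cells were gated for CD45 and CD11b. The deposited counts are raw counts per gene that the authors made by alignment to mm10 with Rsubread and counting with featureCounts; versions, annotation and strand setting are not given in the sources used here. The Methods describe polyA-selected paired-end libraries and the labels Nextera XT single-end libraries, both unstranded. In the Methods a different deposit is named for *Smad2/3* mutants, and the libraries were taken as that experiment from genotype and cell type. A second deposited table holds the authors' DESeq2 comparison (fold changes, p-values) and was not used.

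Genes reaching 10 counts in 4 or more of the 8 libraries were tested with edgeR 4.0.16 (R 4.3.3; TMM, glmQLFit, glmQLFTest, no block), with Benjamini-Hochberg adjustment over all tested genes and calls at adjusted p under 0.05. The standard error is the log2 fold change divided by the square root of F, with 95% intervals on the test's degrees of freedom. The alternatives were DESeq2 1.42.0, RLE factors, library totals, other filters, autosomal and mitochondrial genes only, the replicate block and each mouse left out. The principal transcript and the coding length as length definitions, and the ratios under other lengths, were chosen after seeing the data. Lengths are unions of GENCODE M21 exons on GRCm38. No pair of same-group libraries was alike within sampling noise (lowest chi-square per gene, 107). At a common biological coefficient of variation of 0.542 over the tested genes, the spread between mice limits the precision more than counting does. The p-values set the difference between groups, in which sex and genotype coincide, against the spread between mice. On simulated counts for 19309 genes, with 189 changed by 2 on the log2 scale, edgeR recovered 50.3% and 8.65% of its calls were false, and DESeq2 recovered 67.2% with 33.5% false. The simulation changed a far smaller share of genes than edgeR (12.3%) or DESeq2 (22.6%) called in the data. Its percentages therefore do not give the share of false calls in the data.

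The named genes are the members, 5 pathway lists, 9 marker lists, the targeted and sex-linked genes, and the 3 genes most correlated with the called members of largest rise and fall. Members and lists were chosen with earlier results of these data known. *Pltp*, *Fdft1*, *Gm49369*, *Gm47123*, *Gm49230*, *Gm49391*, *Gm49392* and *Unkl* are named for shared exons.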

Additional observations from a re-analysis of the deposited data

Results flagged for a closer look

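In 76 groups of 4 libraries checked, 2 had a library far from the others in CPM, where chance flags about 1 in 20 groups, or 3.8 here. *Mitf*, the TFEB relative that was not called, was 18.9 CPM in mutant replicate 1 and 28.8 to 29.7 CPM in the other mutants. *Stfa2l1*, a stefin, was 1.93 CPM in mutant replicate 4 and 0.182 to 0.475 CPM in the other mutants.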

How the results depend on the processing

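The number of cathepsins called higher was 2 with DESeq2 and with library totals, the second being *Ctsb* (log2 fold change 0.50, adjusted p = 0.0188 with DESeq2, and 0.62, adjusted p = 0.0229 in edgeR's test with library totals). Without a filter on low counts *Ctsz* was -0.79 and not called (adjusted p = 0.0577 in edgeR's test). DESeq2 called 1903 of all genes higher against 878 with edgeR. With each mouse left out, 525 to 1024 genes were called higher and 1005 to 1587 lower, with both counts smallest without control replicate 2 or 3, and 573 were higher without mutant replicate 2. The log2 fold change of *Ctsz* then ranged from -0.89 to -0.66 and that of *Ctsh* from -0.059 to 0.22, below 0 without control replicate 1 (-0.059) or 2 (-0.017) or mutant replicate 3 (-0.022). The cathepsin calls with autosomal and mitochondrial genes only were again 1 higher and 5 lower. The members all lie on autosomes, so this fit only drops other genes and cannot separate sex from genotype.

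Shares of the summed cathepsin level moved with the length used. Without length, with the longest transcript, the principal transcript and the coding length, *Ctsb* in controls was 14.5%, 6.37%, 6.33% and 15.9%, and *Ctss* 22.2%, 34.1%, 33.9% and 24.2% in controls and 17.4%, 32.1%, 31.3% and 18.6% in mutants. *Ctsz* was 8.80%, 12.7%, 12.6% and 10.7% in controls and 8.64%, 15%, 14.6% and 10.3% in mutants. *Ctsb* in mutants was 34.1% without length, 18.1% with the longest transcript and 36.8% with the coding length, and *Ctsd* in mutants was 11% without length and 9.81% with the coding length, against 33.7% in controls with the coding length.

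The labels number the mice 1 to 4 in each group without saying what a number pairs. Same-numbered libraries deviated together from their group means with correlations of 0.166, 0.018, 0.144 and 0.114, above 0.1 for 3 of the 4 numbers. Since replicate 2 was not, they were not treated as pairs. Mutant replicates 1, 3 and 4 correlated best with their own number, whereas mutant replicate 2 correlated best with control replicate 1 and control replicate 2 with mutant replicate 1. With the replicate block 886 genes were called higher and 1497 lower, and the cathepsin calls stayed at 1 higher and 5 lower. Pathway genes called lower went from 8 to 9 by the addition of *Ctso* (log2 fold change -0.67, adjusted p = 0.0361 in edgeR's test with the block).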
